A study of Mus musculus with 4 samples.

Results

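The BCL2 family apoptosis regulators examined here were 10 genes, chosen by symbol, out of 27179 genes counted in MC38 cells. They comprised 4 anti-apoptotic genes (Mcl1, Bcl2, Bcl2l1 and Bcl2l2), 2 effectors (Bax and Bak1) and 4 BH3-only genes (Bcl2l11, Bid, Bbc3 and Pmaip1). The choice used names only, but earlier results of these data were known when it was made. MC38 is a mouse colon carcinoma cell line, wild type by its label, and it was sequenced as 1 library for each of 4 conditions: control or IFN-γ, under normoxic or hypoxic conditions. The study's methods give 5 ng/mL of IFN-γ for 24 h, 20% oxygen as normoxia and 1.5% oxygen as hypoxia. The study used these cells to follow signaling in the tumor microenvironment under an inflammatory cytokine and low oxygen. Because no condition had a replicate, the spread between cultures of a condition is not known.

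Proteins of the BCL2 family control the mitochondrial route to apoptosis. The effectors BAX and BAK open pores in the outer mitochondrial membrane, through which cytochrome c leaves and caspases are activated. Anti-apoptotic members such as MCL-1 and BCL-XL bind the effectors and hold them back, and BH3-only members such as BIM, BID, PUMA and NOXA bind the anti-apoptotic members or activate the effectors directly. Much of this control acts on protein, by cleavage, phosphorylation, binding and degradation, which read counts do not measure. Counts per gene also do not separate splice forms, such as the long form of Bcl2l1 that protects cells and the short form that promotes death.

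The 4 libraries held between 34302971 and 34537939 counts on genes. Both stimuli were visible in the genes that usually report them. All 6 IFN-γ check genes (Irf1, Cd274, Gbp2, Psmb8, Tap1 and Cxcl10) were called raised with IFN-γ, with a median log2 change of 2.07. All 6 hypoxia check genes (Car9, Vegfa, Egln3, Pdk1, Slc2a1 and Bnip3) were called raised with hypoxia, with a median log2 change of 1.29. The label of colon cancer cells was not matched by epithelial markers. Of 5 epithelial markers, Epcam, Cdh1 and Krt18 had at most 3 counts in any library, and the 5 together (with Krt8 and Krt19) summed to between 50 and 94 counts per library. The intestinal markers Cdx2 and Lgr5 had no count in any library, and the 4 of that list (with Vil1 and Krt20) summed to between 19 and 35. Mesenchymal markers summed to between 77303 and 84654 counts, nearly all of it Vim. Col3a1 had between 2233 and 3238 counts per library. Col1a1 (29 to 66) and Pdgfrb (50 to 93) were about as scarce as the epithelial marker Krt8 (48 to 90). Immune markers summed to between 3 and 13 counts and endothelial markers to between 26 and 50.

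Stretches of genome before the start of a gene are shown, because they lie in front of the family genes that were called for a stimulus and whose flank lies outside annotated exons. They come from RefSeq promoters of the build GRCm38.p6, read 5′ to 3′ on the gene's strand, and stop where the first GENCODE exon begins. Capitals mark the core of the hypoxia response element, ACGTG or GCGTG on either strand. The stretch for Bid is chr6:120916854-120917074 (minus strand), that for Bcl2l11 is chr2:128125788-128126037 (plus strand) and that for Bcl2l2 is chr14:54883175-54883376 (plus strand).
Bid: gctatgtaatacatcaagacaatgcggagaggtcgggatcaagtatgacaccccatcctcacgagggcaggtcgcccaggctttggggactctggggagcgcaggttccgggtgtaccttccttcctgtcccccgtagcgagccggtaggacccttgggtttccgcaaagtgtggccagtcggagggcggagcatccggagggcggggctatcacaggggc
Bcl2l11: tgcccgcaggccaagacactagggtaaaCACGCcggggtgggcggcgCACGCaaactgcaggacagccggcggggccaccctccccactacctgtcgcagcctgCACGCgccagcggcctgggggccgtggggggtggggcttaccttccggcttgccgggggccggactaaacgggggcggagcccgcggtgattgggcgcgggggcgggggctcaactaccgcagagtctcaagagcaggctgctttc
Bcl2l2: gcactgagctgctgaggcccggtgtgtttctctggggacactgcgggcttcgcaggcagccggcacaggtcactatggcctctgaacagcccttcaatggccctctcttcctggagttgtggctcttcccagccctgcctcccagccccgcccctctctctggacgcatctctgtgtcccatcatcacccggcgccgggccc
The corresponding window of Bak1 lies wholly within an exon of a longer annotated Bak1 transcript and is not printed. In the 250 bases before the start, 14 RefSeq promoters of 9 member genes were searched (Pmaip1 was left out). The gamma-activated sequence TTCNNNGAA was found in 0 of the 14, and 7.02% of 32851 promoters of all genes held it. The interferon-stimulated response element, searched as TTTC, any 2 bases and TTTC, was found in 0 of the 14 and in 2.98% of all promoters. The hypoxia core was found in 6 of the 14, belonging to 4 genes, and in 38.6% of all promoters. The first Bcl2l11 promoter held it at 3 places, all read as CACGC in the printed strand, while the windows of Bak1, Bid and Bcl2l2 held none. These letters describe the windows only and say nothing of which factor binds there.

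The family differed in level far more between genes than between conditions. To compare genes, counts were divided by exon length and by the TMM-scaled library size, giving RPKM, reads scaled for the length of a gene's exons and the size of the library. By mean RPKM over the 4 libraries, Bak1 was highest at 117, followed by Bax at 70.8 and Mcl1 at 53.01. Bid (14.4), Bcl2l2 (12.5) and Bcl2l1 (12.2) formed a middle group, with Bbc3 at 8.40 below it. Bcl2l11 stood at 3.69, Bcl2 at 0.786 and Pmaip1 at 0.0107. Bak1 ranked 395th and Bax 719th among 24343 genes with a length, so the effectors lay near the top of the transcriptome, while Bcl2, the gene that named the family, ranked 10651st. Leaving Pmaip1 aside, the highest member exceeded the lowest 149-fold, and no member of these 9 differed by more than 1.60-fold between its highest and its lowest library. The ranges of Bcl2l2 (11.1 to 14.0 RPKM), Bcl2l1 (11.9 to 12.4) and Bid (11.1 to 17.8) overlapped, so their order was not resolved. With the length of the longest transcript in place of all exons, Bcl2l1 came next after Mcl1 at 21.7 RPKM and Bid followed at 21.1.

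**Figure D1:**
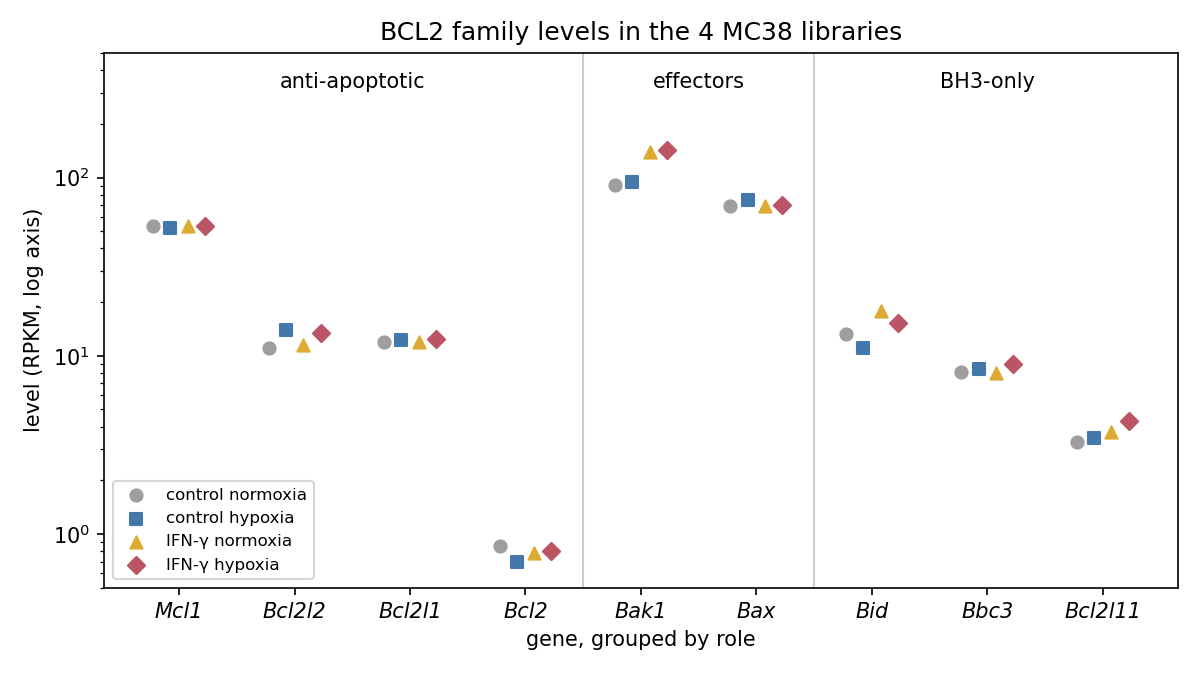
Level of 9 BCL2 family genes in each library, as RPKM on a log axis, grouped by role, with 1 point per library. Mcl1 stays between 52.1 and 53.4 RPKM, while Bak1 lies at 90.8 and 94.9 in the controls and at 140 and 142 with IFN-γ. Pmaip1, with 0 counts in 3 libraries, is not drawn.

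Of the anti-apoptotic genes, Mcl1, whose short-lived protein guards many tumor cells, was the most abundant and the steadiest of the family. Mcl1 (chr3:95658788-95663176, plus strand) had 6325 counts in the normoxic control, 6150 in the hypoxic control, 6248 in the normoxic IFN-γ library and 6233 in the hypoxic IFN-γ library. Its highest level exceeded its lowest by 1.03-fold. For Mcl1 the fitted log2 change was 0.01 with IFN-γ (SE 0.0569, adjusted p = 0.977) and -0.02 with hypoxia (SE 0.0569, adjusted p = 0.872), by the quasi-likelihood test of edgeR, adjusted over all tested genes by the Benjamini-Hochberg method. The counting interval of the IFN-γ change in Mcl1 ran from -0.05 to 0.05 under normoxic conditions and from -0.02 to 0.08 under hypoxic conditions, on the log2 scale. These intervals, like all single-pair intervals here, cover 95% of counting error only and not the difference between cultures. By real-time PCR in MC38 cells, the study itself reported lower MCL-1 mRNA after IFN-γ and also under hypoxic conditions. Neither decrease was seen in these libraries, with 1 library per condition, and the reason for the difference was not tested.

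Bcl2l1, which encodes BCL-XL, lay on mouse chromosome 2 (chr2:152780668-152831728, minus strand). Its counts were 1888 in the normoxic control, 1946 in the hypoxic control, 1883 in the normoxic IFN-γ library and 1954 in the hypoxic one. Wherever a pair of values is given for a treatment from here on, the normoxic library comes first. The 4 values lay within 1.05-fold of each other after scaling. Bcl2l1 was not called for IFN-γ (log2 change 0.01, edgeR adjusted p = 0.980) or for hypoxia (0.05, edgeR adjusted p = 0.713).

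Bcl2l2, which encodes BCL-W (chr14:54883377-54888234, plus strand), was the only anti-apoptotic gene called for a stimulus in the edgeR test. It had 1711 and 1749 counts in the control and IFN-γ libraries under normoxic conditions and 2159 and 2039 under hypoxic conditions. Both hypoxic libraries were higher than both normoxic ones. Bcl2l2 rose with hypoxia by a log2 change of 0.28 (SE 0.0713, edgeR adjusted p = 0.00139), a 1.22-fold difference, and was not called for IFN-γ (log2 change -0.01, edgeR adjusted p = 0.983). The call was lost under 3 of 7 alternative fits, with adjusted p-values up to 0.449, while the change stayed between 0.27 and 0.28. Of its 31-base words, 12.8% also occur in other annotated genes, nearly all in Gm20521, which lies on the same strand and overlaps it, so some of these reads could belong to either.

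Bcl2 (chr1:106538178-106714274, minus strand) was rare in these cells. It had 273 counts in the normoxic control, 221 in the hypoxic control, and 245 (normoxic) and 252 (hypoxic) with IFN-γ. The hypoxic control was the lowest and the normoxic control the highest, with both IFN-γ libraries between them. Bcl2 was not called for IFN-γ (log2 change 0.03, SE 0.143, edgeR adjusted p = 0.982) or for hypoxia (-0.13, SE 0.143, edgeR adjusted p = 0.623). At these counts the standard error was the largest of the 9 tested members.

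Among the effectors, Bak1 carried the largest change of the family. Bak1 (chr17:27019810-27029009, minus strand) encodes BAK, which resides in the outer mitochondrial membrane. It had 7566 counts in the normoxic control and 7891 in the hypoxic control. With IFN-γ it had 11556 counts under normoxic and 11751 under hypoxic conditions. The IFN-γ libraries thus lay above the controls at either oxygen level, and oxygen made little difference. Bak1 rose with IFN-γ by a log2 change of 0.61 (SE 0.0537, edgeR adjusted p = 1.93e-27), a 1.52-fold difference, and passed in all 7 alternative fits, with adjusted p-values up to 0.00981. It ranked 562nd of 13580 tested genes by its IFN-γ change. Its hypoxia change was 0.04 (SE 0.0536, edgeR adjusted p = 0.661). Ggnbp1 overlaps Bak1 on the opposite strand and had between 32 and 64 counts per library.

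Bax (chr7:45461697-45466898, minus strand) encodes the effector that moves from the cytosol to mitochondria. It had 3799 and 4068 counts in the normoxic and hypoxic controls, and 3731 and 3768 in the IFN-γ libraries in the same order. The control library under hypoxic conditions was the highest, and the others lay within a narrow range. Bax was not called for IFN-γ (log2 change -0.05, SE 0.0614, edgeR adjusted p = 0.832) or for hypoxia (0.06, SE 0.0614, edgeR adjusted p = 0.601). Of the 31-base words of Bax, 11.1% occur in other annotated genes, mostly in Gm45808, which overlaps it on the same strand.

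The BH3-only genes included the most variable member. Bid (chr6:120891930-120916853, minus strand) encodes a protein that caspase-8 cleaves, linking death receptors to mitochondria. It had 1624 and 1364 counts in the normoxic and hypoxic controls, and 2164 and 1861 in the IFN-γ libraries. The IFN-γ libraries were higher at each oxygen level, and the hypoxic library was lower with or without IFN-γ. Bid rose with IFN-γ by a log2 change of 0.44 (SE 0.0729, edgeR adjusted p = 4.94e-08), a 1.36-fold difference. With hypoxia Bid fell by 0.23 on the log2 scale (SE 0.0728, edgeR adjusted p = 0.0140). The IFN-γ call was lost in 2 of 7 alternative fits (adjusted p up to 0.278) and the hypoxia call in 3 of 7 (up to 0.625). The 3′ part of Bid overlaps Bcl2l13 on the opposite strand, which had between 2357 and 2627 counts per library, and whether the counting used the strand is not given in the sources used here.

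Bcl2l11 (chr2:128126038-128162547, plus strand) encodes BIM, a strong activator of apoptosis held in check by growth signals. Its counts were 917 in the normoxic control, 953 in the hypoxic control, 1026 with IFN-γ under normoxic conditions and 1186 with IFN-γ under hypoxic conditions. Both IFN-γ libraries were above both control libraries. Bcl2l11 passed the threshold for IFN-γ with a log2 change of 0.25 (SE 0.0815, edgeR adjusted p = 0.0347), and 0 of 7 alternative fits passed, with adjusted p-values between 0.0614 and 1. Its hypoxia change was 0.14 (SE 0.0815, edgeR adjusted p = 0.286).

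Bbc3 (chr7:16308393-16318205, plus strand), which encodes PUMA, had 597 and 622 counts in the normoxic and hypoxic controls, and 580 and 658 in the IFN-γ libraries. Each hypoxic library was slightly above its normoxic partner. Bbc3 was not called for IFN-γ (log2 change 0.03, SE 0.0971, edgeR adjusted p = 0.957) or for hypoxia (0.12, SE 0.0971, edgeR adjusted p = 0.455). Pmaip1, which encodes NOXA, had 0 counts in 3 libraries and 4 counts in the hypoxic IFN-γ library (exact Poisson 95% interval 1.09 to 10.2). By the same interval, a count of 0 allows up to 3.69 counts. No fold was given where a library held 3 counts or fewer, which is 0.0866 to 0.0875 CPM (counts scaled to library size) in these 3 libraries. Pmaip1 was left out of the test by the filter on low counts.

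Counted over the family, 9 of the 10 members were tested. With IFN-γ, 3 of 9 were called raised (Bak1, Bid and Bcl2l11), beside 4.76% of all 13580 tested genes, and 0 of 9 were called lowered, beside 1.1%. DESeq2's Wald test called 0 of the 9 lowered, but it called only 17 of 18812 genes lowered, so that 0 adds little. No member beyond the 3 called had an unadjusted edgeR p under 0.05 for IFN-γ. With hypoxia, 1 of 9 was called raised (Bcl2l2), beside 8.21% of all tested genes, and 1 was called lowered (Bid), beside 6.83%. The median log2 change of the 9 members was 0.03 with IFN-γ and 0.05 with hypoxia, and over all tested genes it was -0.01 and 0.00470. Thus most of the family stayed near the middle of the transcriptome. The 3 genes called for IFN-γ are pro-apoptotic, as are Bax and Bbc3, which were not called. The Bcl2l11 call passed in 0 of 7 alternative fits. Bmf, a BH3-only gene outside the 10, was called lowered with IFN-γ. The 10 members were picked by name with earlier results of these data known, so these counts describe the family and are not a test of it.

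Each stimulus could also be read in 2 separate pairs of libraries, which share no library with each other. The libraries are the same ones as in the fits above, and each IFN-γ pair shares a library with each hypoxia pair. For IFN-γ under normoxic conditions, 3 of 9 members had a counting interval that excluded 0, beside 34.9% of tested genes. These were Bak1 at 0.63 (0.58 to 0.67), Bid at 0.43 (0.33 to 0.52) and Bcl2l11 at 0.18 (0.05 to 0.31), all upward on the log2 scale. Under hypoxic conditions 4 of 9 did, beside 37.7% of tested genes. Bak1 was at 0.59 (0.55 to 0.63), Bid at 0.46 (0.36 to 0.56) and Bcl2l11 at 0.33 (0.20 to 0.45), and Bax was lower at -0.10 (-0.16 to -0.03). The same 3 genes were therefore above 0 at either oxygen level. As counts of members, both results were close to the background shares.

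For hypoxia without IFN-γ, 5 of 9 members had an interval that excluded 0, beside 45.3% of tested genes. Bcl2l2 was higher at 0.34 (0.25 to 0.43), Bax at 0.10 (0.04 to 0.17) and Bak1 at 0.06 (0.02 to 0.11). Bcl2 was lower at -0.30 (-0.56 to -0.04) and Bid at -0.25 (-0.35 to -0.14). With IFN-γ present 4 of 9 did, beside 45.8% of tested genes. Here Bcl2l2 was at 0.22 (0.13 to 0.32), Bcl2l11 at 0.21 (0.09 to 0.33), Bbc3 at 0.18 (0.02 to 0.35) and Bid at -0.22 (-0.31 to -0.13). Bcl2l2 and Bid excluded 0 in the same direction in both pairs. These member counts are close to the background shares, and the intervals hold no variation between cultures.

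**Figure D2:**
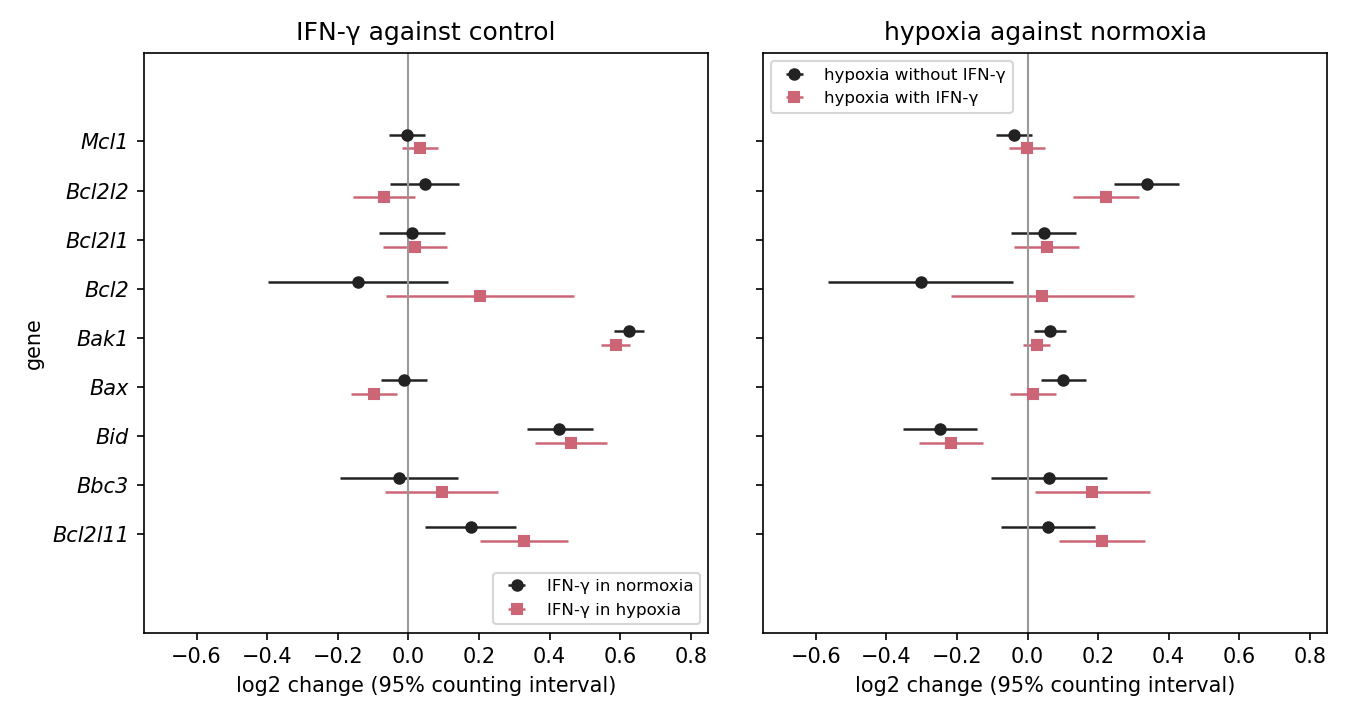
Log2 change of each tested member, with bars for the 95% counting interval, for IFN-γ against control (left) and hypoxia against normoxia (right), in the 2 pairs of libraries each. The IFN-γ changes of Bak1 (0.63 and 0.59) and Bid (0.43 and 0.46) nearly coincide between the oxygen levels, and Bid lies below 0 with hypoxia in both pairs (-0.25 and -0.22).

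With both stimuli against neither, 4 of 9 members had an interval that excluded 0, beside 47.6% of tested genes, and all 4 were higher. Bak1 was at 0.65 (0.61 to 0.69), Bcl2l11 at 0.39 (0.26 to 0.51), Bcl2l2 at 0.27 (0.18 to 0.36) and Bid at 0.21 (0.12 to 0.31). For Bid this value lay between its upward IFN-γ change and its downward hypoxia change. Mcl1 was at -0.0056 (-0.06 to 0.05).

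Whether oxygen altered the IFN-γ change was read as the change under hypoxic conditions minus that under normoxic conditions. The counting interval of this difference excluded 0 for 0 of 9 members, beside 30.3% of tested genes. Among 10443 genes whose 4 libraries each held 100 counts or more, the central 95% of differences ran from -0.36 to 0.40, and all 9 members lay inside it. The difference was -0.04 (-0.10 to 0.02) for Bak1, 0.03 (-0.10 to 0.17) for Bid and 0.15 (-0.03 to 0.33) for Bcl2l11. It was widest for the rare Bcl2, at 0.34 (-0.02 to 0.70). Without replicates the difference could not be tested, and these intervals bound it for counting error only.

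By role, the effectors made up most of the family's level per length. Their share of the summed RPKM of the 10 genes was 61.2% in the normoxic control and 62.4% in that under hypoxic conditions, and 66.2% in each IFN-γ library. The anti-apoptotic share was 29.5% and 29.1% in the controls and 24.5% and 24.9% with IFN-γ. The BH3-only share was 9.39% and 8.48% in the controls and 9.33% and 8.95% with IFN-γ. The summed level itself was 262 and 272 RPKM in the controls and 316 and 321 RPKM with IFN-γ. Bak1 alone made up 40.0% of the mean family level, so these shares follow it closely. A share of transcripts per length is not a share of protein.

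**Figure D3:**
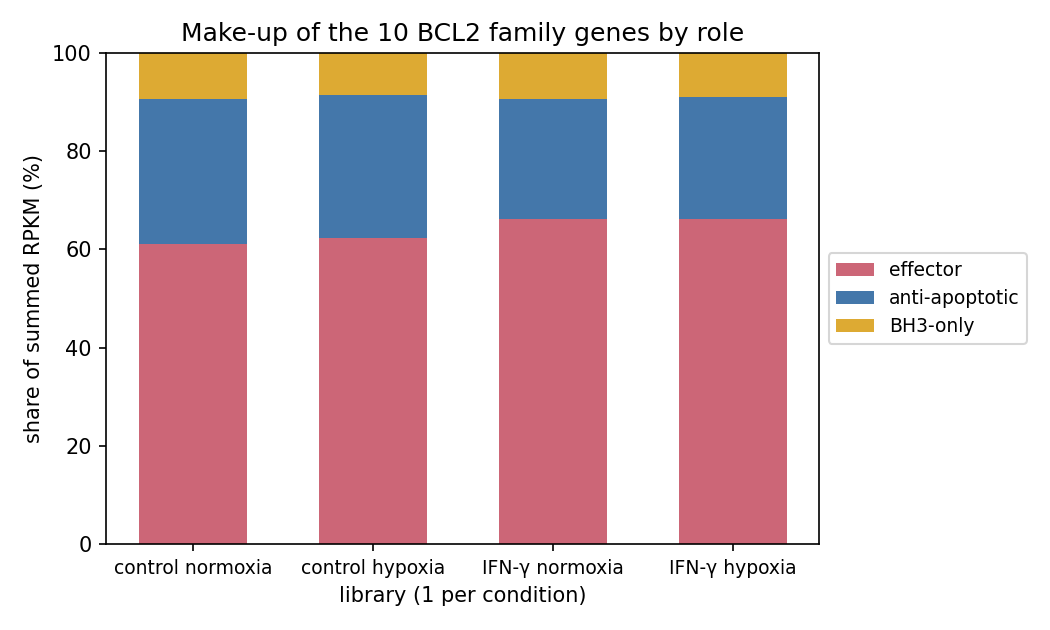
Share of the summed RPKM of the 10 BCL2 family genes held by effectors, anti-apoptotic and BH3-only genes in each library (stacked to 100%, 1 library per bar). The effector share is 61.2% and 62.4% in the controls and 66.2% in both IFN-γ libraries.

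Ratios within a library need no scaling between libraries. Bak1 over Mcl1, an effector and one of the proteins that restrain it, was 1.70 and 1.82 per length in the controls and 2.63 and 2.68 in the IFN-γ libraries. With IFN-γ this ratio was 0.63 higher in log2 under normoxic conditions (0.56 to 0.69) and 0.56 higher under hypoxic conditions (0.49 to 0.62). Bcl2l11 over Mcl1 was 0.0617 and 0.0660 in the controls and 0.0699 and 0.0810 with IFN-γ, the highest value being that with both stimuli. Bax over Bcl2, a ratio often used as an index of readiness for apoptosis, was 80.9 and 107 in the controls and 88.5 and 86.9 with IFN-γ. Its highest value came with hypoxia alone, where it was 0.40 higher on the log2 scale than in the normoxic control (0.14 to 0.67), and with IFN-γ present the hypoxia change was -0.03 (-0.29 to 0.24). That ratio rests on the few counts of Bcl2. Bax over Bcl2l1 stayed between 5.61 and 6.08 in all libraries. Under hypoxic conditions the IFN-γ change in log2 was -0.30 (-0.57 to -0.03) for Bax over Bcl2 and -0.12 (-0.23 to -0.0056) for Bax over Bcl2l1. Under normoxic conditions these changes were 0.13 (-0.13 to 0.39) and -0.02 (-0.14 to 0.09).

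**Figure D4:**
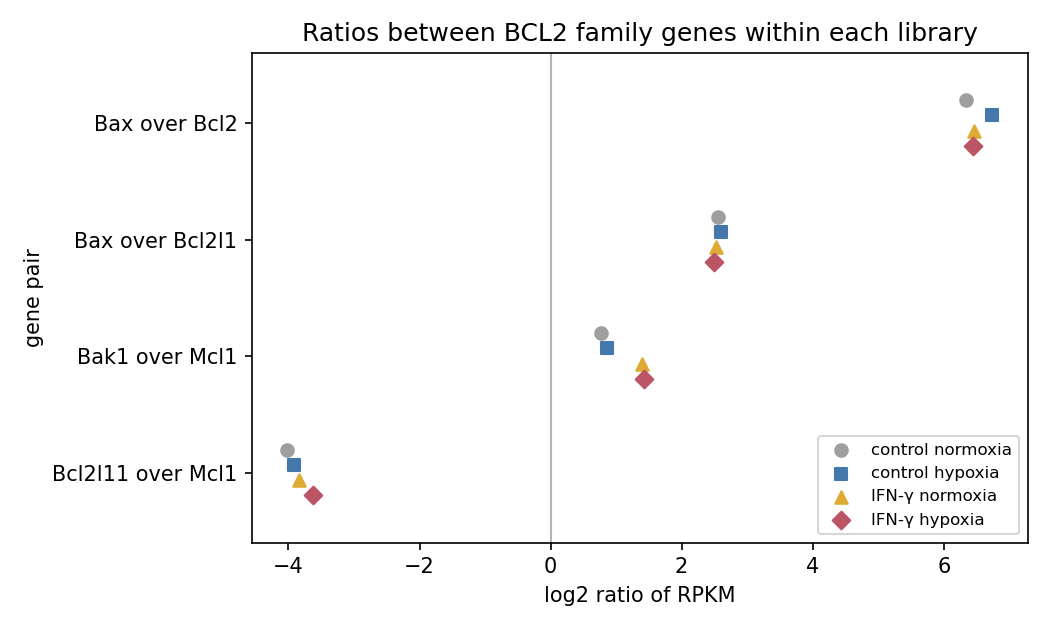
Log2 ratio of RPKM for 4 gene pairs in each library. Bak1 over Mcl1 is 0.76 and 0.87 in the controls and 1.39 and 1.42 with IFN-γ, while Bax over Bcl2 is highest, at 6.74, in the hypoxic control.

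Some genes outside the family followed nearly the same course over the 4 libraries as the members that were called. Likeness was the distance between log2 CPM centred over the 4 libraries, among 10336 candidate genes, and with 4 values per gene many genes can lie close by. Nearest to Bak1 were Styk1 (distance 0.0240) and Zfp160 (0.0452). Nearest to Bid were Ipw (0.0374) and Myd88 (0.0397), an adaptor of Toll-like receptors whose counts were 2044 and 1706 in the controls and 2631 and 2334 with IFN-γ. Nearest to Bcl2l11 were Ap3m2 (0.0390) and Foxj2 (0.0408), and nearest to Bcl2l2 were Mtmr6 (0.0147) and Fyttd1 (0.0160).

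Of 16 other genes of the BCL2 family and its BNIP relatives, 7 were tested. With IFN-γ, 1 was called lowered and none raised. Bmf, a BH3-only gene, had 104 and 106 counts in the controls and 50 and 65 with IFN-γ, where it fell by 0.86 on the log2 scale (SE 0.247, edgeR adjusted p = 0.0108). With hypoxia, 2 were called raised and none lowered. Bnip3 and Bnip3l, which mark mitochondria for removal by autophagy, rose by log2 changes of 1.68 and 1.31. Bnip3 is also one of the hypoxia check genes. For this and the following lists, the shares called among all tested genes were 4.76% raised and 1.1% lowered with IFN-γ. With hypoxia those shares were 8.21% raised and 6.83% lowered. The median log2 change of the 7 was -0.06 with IFN-γ and 0.13 with hypoxia. By level per length, Bok, a pore-forming relative of the effectors, averaged 33.3 RPKM and Bad, a BH3-only gene, 15.5 RPKM. Bcl2a1a, Bcl2a1b, Bcl2a1c and Bcl2a1d had no count in any library.

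Downstream of the mitochondria, the 13 reported genes of the apoptosome and the caspases had 12 tested members, with a median log2 change of -0.02 for each stimulus. With hypoxia, 1 of the 12 was called raised, beside 8.21% of all tested genes, and 2 were called lowered, beside 6.83%. Casp6, an executioner caspase, had 593 and 977 counts in the controls and 643 and 1006 with IFN-γ, and rose with hypoxia by 0.68 (SE 0.0881, edgeR adjusted p = 8e-13). Dffb, a nuclease that cuts DNA in dying cells, fell by 0.37 on the log2 scale with hypoxia, and Htra2, a mitochondrial protease, by 0.24. Casp8, Casp9 and Apaf1 were called for neither stimulus.

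Of 6 caspase inhibitors, all were tested. Cflar, which encodes the caspase-8 inhibitor c-FLIP, was called raised with either stimulus. It had 1303 and 1572 counts in the controls and 1677 and 1938 with IFN-γ, with log2 changes of 0.35 for IFN-γ (edgeR adjusted p = 0.000100) and 0.24 for hypoxia (edgeR adjusted p = 0.0118). Birc2, a ubiquitin ligase of the IAP family, rose with hypoxia by 0.35. Median log2 changes of the 6 were 0.01 with IFN-γ and 0.18 with hypoxia. Of 4 outer membrane partners, Vdac1, the main channel of that membrane, rose with hypoxia by 0.36 and none was called for IFN-γ. The medians of these 4 were 0.0067 and -0.03.

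Among 13 transcription factors known to act on BCL2 family genes, all were tested. Irf1 rose by 2.43 with IFN-γ, from 3770 and 4422 counts in the controls to 20118 and 23759, and Stat3 by 0.80 (SE 0.0650). With hypoxia, Foxo3 rose by 0.62, Ddit3 by 0.33 and Irf1 by 0.24. Foxo3 and Ddit3 encode known activators of Bcl2l11. The median of the 13 was 0.10 with IFN-γ and 0.03 with hypoxia. Of 6 genes that act on the stability of MCL-1 and BIM protein, 1 was called for IFN-γ and none for hypoxia. Marchf5, a ubiquitin ligase of the outer mitochondrial membrane, had 2732 and 2923 counts in the controls and 3487 and 3734 with IFN-γ, a log2 change of 0.37 (SE 0.0636, edgeR adjusted p = 3.63e-07). The medians of these 6 were 0.03 and 0.06.

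Bbc3, Bax and Pmaip1 are classical targets of p53, and 15 further targets outside the family were set beside them, of which 14 were tested. With IFN-γ, Eda2r rose by 0.65, and Btg2 and Plk2 fell by 0.56 and 0.39 on the log2 scale. With hypoxia, Trp53inp1 rose by 0.96, Cdkn1a, which encodes the cell cycle inhibitor p21, by 0.95 and Plk2 by 0.20, and Aen fell by 0.36 on the log2 scale. The median of the 14 was -0.02 with IFN-γ and 0.04 with hypoxia. Of the family targets, Bbc3 and Bax were called for neither stimulus, and Pmaip1 was not tested. Across the reported genes of all 7 lists, with members of the family left out, 62 genes were tested. With IFN-γ, 5 of these were called raised and 3 lowered, beside 4.76% and 1.1% of all tested genes, and with hypoxia 12 were called raised and 3 lowered, beside 8.21% and 6.83%.

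**Figure D5:**
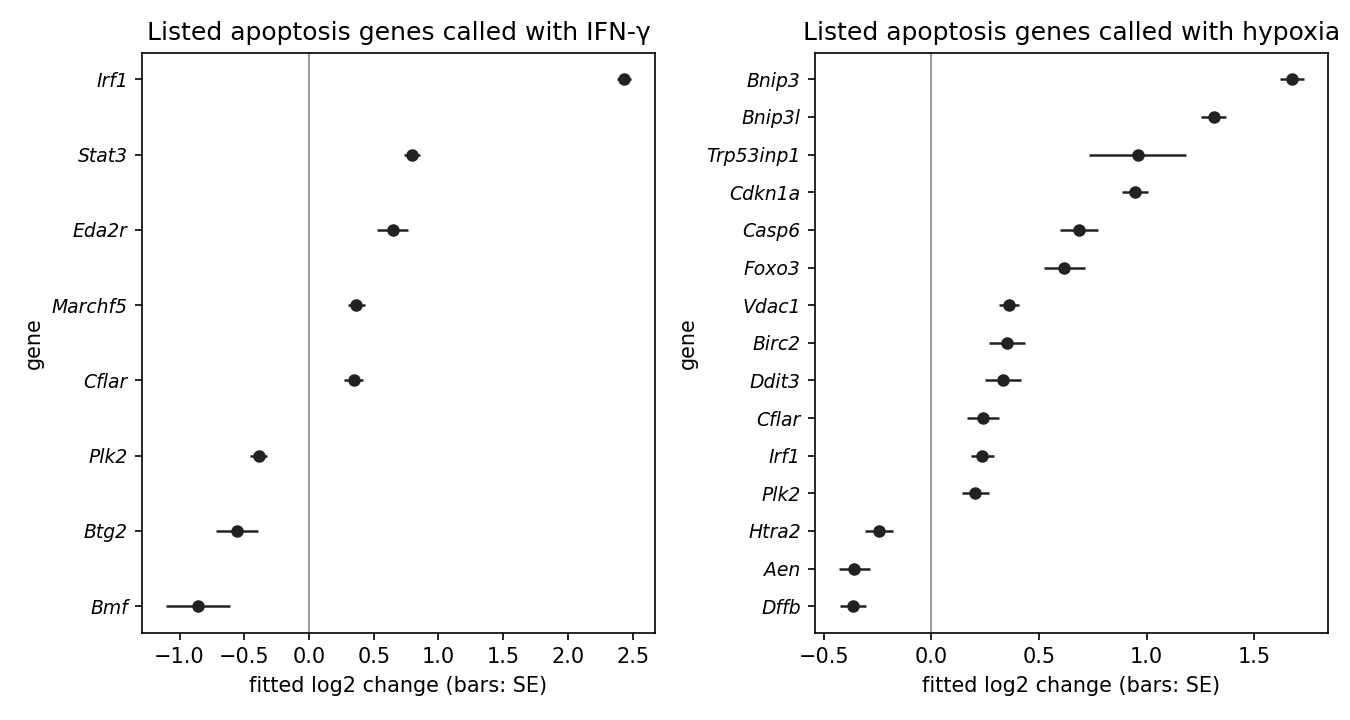
Fitted log2 change (x axis) of the reported list genes outside the 10 members that were called for IFN-γ (left, 8 genes) and for hypoxia (right, 15 genes), with bars of 1 standard error. Irf1 (2.43) and Stat3 (0.80) rise most with IFN-γ, and Bmf (-0.86) falls most. Bnip3 (1.68) and Bnip3l (1.31) rise most with hypoxia.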

How the data were processed

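RNA from MC38 cells was poly-A selected per the labels (total RNA in the study's text), made into strand-specific libraries and sequenced as 100-base pairs on a DNBSEQ instrument. Reads were aligned with HISAT2, and the submitters' processing notes name featureCounts and mm10. The version, the annotation and the strand setting are not given in the sources used here. The authors deposited whole-number counts per NCBI gene ID for the 4 libraries, without normalization. Of 27179 IDs, 25275 matched a RefSeq symbol (GRCm38.p6). Exon lengths, coordinates and overlaps came from GENCODE M21 (GRCm38), whose version may differ from the authors' annotation.

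Counts were tested with edgeR 4.0.16 (quasi-likelihood, TMM, minimum count of 10, 13580 genes tested, Benjamini-Hochberg, threshold 0.05) in an additive model of oxygen and IFN-γ. With 1 library per condition, the only measure of spread was how far counts departed from the additive model. A single gene leaves 1 residual degree of freedom for this. The edgeR test therefore shared the spread among all tested genes (common coefficient of variation 4.71%). The p-values and standard errors rest mainly on that shared spread, which mixes culture differences with any true interaction. Changes in single pairs of libraries are log2 ratios of TMM-scaled CPM after adding 0.5 counts, with Clopper-Pearson 95% intervals. The script was tested on simulated data.

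The members, lists and tests were chosen with earlier results of these data known. Named genes were all 10 members, list members called for either stimulus (for lists with more than 4 such genes per stimulus, the 4 with the largest change) and, for each called member, the 2 nearest genes among those with 100 counts or more in each library. Other genes were named as check genes, markers, levels or uncalled caspases after their values were seen. Of the listed genes, 2 are not reported here and are left out of every list count. A planned comparison of member protein sequences was not made here. Alternatives were DESeq2 1.42.0 (Wald test, and its size factors in edgeR), total counts, a fixed biological coefficient of variation of 10%, dropping the low-count filter, a minimum of 10 counts in each library, 2 libraries against 2, 5 counts added, the longest transcript as length, and shares without Mcl1.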

Additional observations from a re-analysis of the deposited data

Results flagged for a closer look

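For 4 members the IFN-γ change had opposite signs under normoxic and hypoxic conditions. The change under hypoxic conditions minus that under normoxic conditions was 0.34 on the log2 scale for Bcl2 (-0.14 under normoxic and 0.20 under hypoxic conditions). It was 0.12 for Bbc3 (-0.03 and 0.09), 0.036 for Mcl1 (-0.0035 and 0.03) and -0.12 for Bcl2l2 (0.05 and -0.07). The counting interval of the difference included 0 for each of the 4, and with 1 library per condition the difference was not tested.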

How the results depend on the processing

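No paired analysis was possible because each condition had 1 library, so no replicate numbers pair cultures, and no library could be left out of the additive fit. That fit itself compares each stimulus within the levels of the other, and the comparison of 2 libraries against 2 does not. Of 9 family members, 3 were called raised with IFN-γ, but no alternative called all 3. A fixed coefficient of variation of 10% called 1 and 2 libraries against 2 called 1 (Bak1 in both), and each of the other 5 called 2 (Bak1 and Bid). With hypoxia, 1 was called raised and 1 lowered, and 0 in each direction with the fixed coefficient, with 2 against 2 and by DESeq2's Wald test. Of the listed pathway genes called lowered with IFN-γ (3 in the main test), 1 was with the fixed coefficient, 1 by DESeq2 and 0 with 2 against 2, and the 5 raised became 3, 3 and 2 in the same order. With hypoxia, 12 listed genes were raised and 3 lowered, against 6 and 0 with the fixed coefficient, 6 and 0 with 2 against 2, and 7 raised by DESeq2. Over all genes, calls with IFN-γ (647 raised, 149 lowered) became 239 and 3 with 2 against 2, 348 and 17 by DESeq2, and 428 and 57 with the fixed coefficient, and the lowered ones 99 with DESeq2's size factors, 71 without the filter and 74 at 10 counts in every library. With hypoxia (1115 raised, 927 lowered) they became 150 and 26, 340 and 216, and 362 and 66 under the first 3 of these. The mean BH3-only share of the family level was 9.03%, and 10.6% with the longest transcript as length, under which its IFN-γ difference under normoxic conditions turned positive, at 0.29 percentage points. Without Mcl1 the mean shares were 10.7% anti-apoptotic, 78.2% effector and 11.1% BH3-only, against 27.0%, 64.0% and 9.03% with it. The cause of each lost call was not tested. Low counts limit Bcl2 most, and Pmaip1 could not be compared.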
